A study of Mus musculus with 9 samples.

Results

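The genes described are 45 genes of protein folding in the endoplasmic reticulum (ER), the unfolded protein response, ER-associated degradation and export from the ER. They were taken by gene symbol from the deposited table of 54532 mouse genes, chosen by role with no threshold on a measured value, though with earlier results of these data known. All 45 symbols were found, and all 45 passed the filter on low counts that left 15909 genes for testing. The symbol Ddit3 stood on 2 gene identifiers, of which 1 had 0 counts in every library and was not tested. RNA was measured in enamel organs dissected from the first molars of 9 male mouse pups on postnatal day 12, with 1 polyA-selected library per mouse. The 5 mice of the early life adversity (ELA) group were kept with limited nesting and bedding material from postnatal day 2 to day 12, and the 4 control mice were not. Pups of both groups carried Crh-IRES-Cre and the Ai14 tdTomato reporter on a C57Bl6 background. The titles of the ELA mice begin with t-203 or t-205 and those of the control mice with c-202 or c-204. The labels do not say whether these numbers are litters. For its qPCR the paper describes 4 control and 5 ELA male mice from 2 litters of each group, and for the sequenced mice it names no litters. Bedding was limited per cage, so pups of 1 litter share the treatment. The p-values thus measure the spread between mice that may not be independent.

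Proteins bound for secretion enter the ER through the SEC61 channel and are folded there by chaperones and disulfide isomerases. They leave in vesicles with a COPII coat, and escaped chaperones that end in the KDEL signal are brought back from the Golgi by KDEL receptors. When unfolded protein accumulates, the sensors IRE1 (Ern1), PERK (Eif2ak3) and ATF6 act through the transcription factors XBP1, ATF4 and cleaved ATF6 to raise chaperone and degradation genes. Ameloblasts of the enamel organ export very large amounts of enamel matrix protein, and mutant enamel proteins retained in the ER can set off this response. The question put to the data was whether messenger RNA of this system differed between ELA and control enamel organs, in which amelogenin messenger RNA was higher in every ELA mouse than in every control mouse. Splicing of Xbp1 and cleavage of ATF6 cannot be read from counts per gene.

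The promoters of many of these genes hold elements read by ATF6 and XBP1, and the sites are shown because the members that hold them can be set apart by sequence alone. RefSeq promoter windows (GRCm38.p6, 250 bases before to 50 after the start) were given for 38 of the 45 members. Both strands were searched. The ER stress element, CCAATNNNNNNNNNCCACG, was in the windows of 9 members, Calr, Canx, Creld2, Derl3, Dnajc3, Hsp90b1, Hspa5, Pdia6 and Syvn1. Over all 27025 genes with a window, 0.137% hold it. The sites of 5 genes are printed 5′ to 3′ on the strand that holds the element, with the fixed letters of the element in capitals.
Hspa5: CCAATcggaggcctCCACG
Calr: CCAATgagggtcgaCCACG
Canx: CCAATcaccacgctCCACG
Hsp90b1, nearer site: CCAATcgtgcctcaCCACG
Hsp90b1, farther site: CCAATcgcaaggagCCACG
Derl3: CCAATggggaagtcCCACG
The Hspa5 site is at chr2:34772025-34772043 on the plus strand, with its centre 56 bases before the RefSeq start. The gene of the deposited table begins at 34771970, so the site lies inside its span. The Calr site is at chr8:84847075-84847093, plus strand, and the Canx site at chr11:50325800-50325818, minus strand. Hsp90b1 has its sites at chr10:86705533-86705551, plus strand, and chr10:86705638-86705656, minus strand, and the Derl3 site is at chr10:75893242-75893260, minus strand. The shorter ERSE-II, made of ATTGG, any 1 base and CCACG, was in the windows of Dnajb11 and Herpud1 (0.0444% of all genes with a window). The XBP1 element TGACGTGG was in those of Kdelr3, Sec23a and Sec24d (0.714% of all genes with a window). The ATF4 element TGATGNAA was in those of Chac1, Herpud1, Kdelr1 and Trib3 (4.51% of all genes with a window). A match is a description of these letters and not a measured binding site.

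The enamel organ label was checked against its markers. All 5 secretory-stage and all 6 maturation-stage ameloblast markers were detected in every library, and the summed CPM (counts scaled to a common library size, with TMM library sizes) of the secretory-stage markers was 71677 to 130385 in ELA and 50676 to 64874 in control mice. Total counts were 18056774 to 32110160 in ELA and 18683431 to 20831736 in control libraries. Markers of dental mesenchyme and fibroblasts, of which none was at 0, summed to 12004 to 23370 CPM in ELA and 15738 to 31006 CPM in control mice, and 9 of 9 had a negative log2 fold change. Odontoblast markers summed to 430 to 3693 CPM in ELA, highest in t-203-1-5, and to 835 to 2781 CPM in control mice. Osteoblast markers summed to 2279 to 3072 CPM in ELA and 2314 to 3000 CPM in control mice. Of those tested, 2 of 2 odontoblast, 3 of 5 osteoblast and 4 of 4 osteoclast markers had a negative log2 fold change. Neuron markers summed to 434 CPM in t-203-1-4 and to 38.3 to 66.4 CPM in the other 8 libraries. Among B and plasma cell markers, Ighm, Cd79a, Cd79b and Ms4a1 were lower in every ELA mouse than in every control mouse. Igkc went the other way, at 3.39 to 26.6 CPM in ELA and 2.92 to 5.85 CPM in control mice (log2 fold change 1.54, edgeR unadjusted p = 0.0132, adjusted p = 0.569). The plasma cell markers Jchain and Mzb1 reached at most 0.438 and 1.35 CPM. In bulk RNA, fewer cells of a type and less RNA per cell cannot be told apart.

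No member passed the adjusted p in either direction. The smallest edgeR adjusted p among the 45 was 0.646 (Kdelr2), and 0.0629% of all genes tested passed. At an unadjusted p below 0.05, 0 members were higher in ELA, where 3.56% of all genes were, and 1 member (Kdelr2) was lower, where 2.89% of all genes were. DESeq2 gave the same 0 and 1 at its unadjusted p, and 0 members at its adjusted p. Over all 29941 genes in that fit, in either direction, 1298 were below its unadjusted p of 0.05 and 141 passed its adjusted p. No member had all ELA mice above all control mice (1.39% of all genes), and 1, again Kdelr2, had all ELA mice below all control mice (1.29% of all genes). The log2 fold change, ELA minus control, was positive in 21 members and negative in 24. Its median over the members was −0.02, beside 0.01 over all genes tested.

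The intervals describe the size of the differences, and like the p-values they treat the mice as independent. If mice that share a title number are not independent, the intervals may be too narrow. The 95% interval of the log2 fold change had a median half-width of 0.33 over the 45 members, from 0.23 (Derl2) to 1.14 (Chac1). For 31 members the whole interval lay within a 1.5-fold difference either way, and for 44 it lay within 2-fold, the exception being Chac1. The point estimates ran from 0.690-fold (Chac1) to 1.35-fold (Sdf2l1), and 37 of 45 were within 0.2 of 0 on the log2 scale. The amelogenin gene Amelx, the main enamel matrix gene and not a member, had a log2 fold change of 1.56 ± 0.22 (SE, edgeR adjusted p = 0.0477). That call was lost in 9 of 15 alternatives, among them 8 of the 9 that left out 1 mouse. In those 9 fits its edgeR adjusted p was 0.00619 to 0.274 and its log2 fold change 1.43 to 1.70. The call was kept in 6 alternatives, with an adjusted p from 3.0e-10 (DESeq2) to 0.0487 (edgeR with library totals). The lower bound of the Amelx interval in the main fit, 1.08, was above the highest upper bound of any member, 0.97 (Sdf2l1). Amelx ranked 4 by p among the 15909 genes tested in these same data, so that gap is a description and not a test. Ambn, the secretory-stage marker with the most counts, had a log2 fold change of 0.53 (edgeR adjusted p = 0.579). Its interval, 0.13 to 0.93, overlaps those of members. Together the 45 genes took 0.694% to 0.750% of the counts of each ELA library and 0.724% to 0.771% of each control library, without TMM. Their summed CPM, with TMM library sizes, was 7436 ± 398 (SD, n = 5) in ELA and 7356 ± 311 (SD, n = 4) in control mice. Both measures overlap between the groups. The shares lay lower in ELA at both ends, while the mean of the TMM sums was higher there. The secretory-stage markers in the same libraries summed to 100453 ± 20896 and 58952 ± 6247 CPM (SD, n = 5 and 4), with no overlap. Ambn, at 55496 to 90423 CPM in ELA and 41218 to 55922 CPM in control mice, and Amelx made up most of that sum. Amelx and Enam had every ELA mouse above every control mouse, and Ambn, Mmp20 and Acp4 overlapped, so the sum does not describe each marker.

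**Figure D1:**
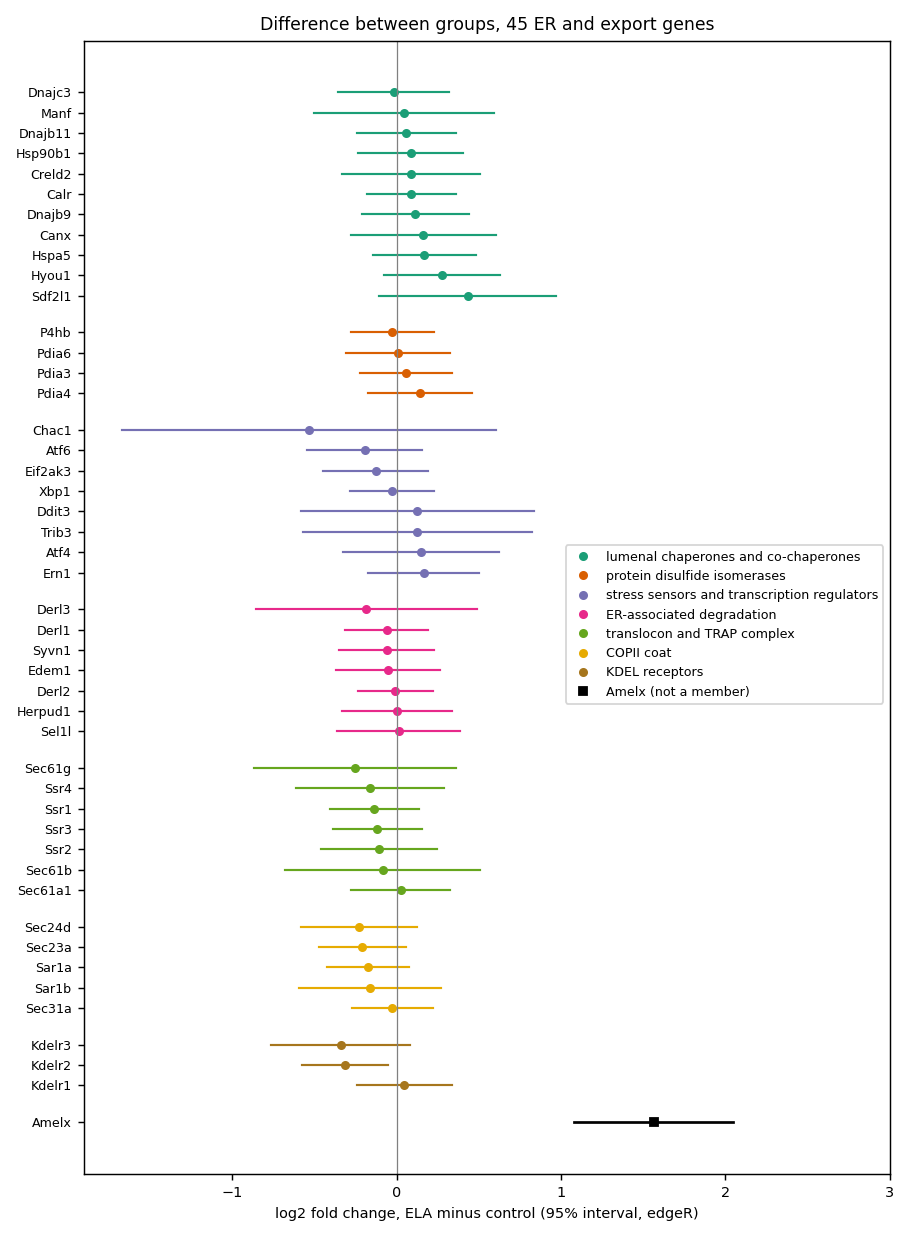
Log2 fold change (ELA minus control, x axis) of each of the 45 members, with its 95% interval from edgeR, grouped and coloured by role, and Amelx for scale. The intervals of 44 members include 0, that of Kdelr2 lies below 0, and that of Amelx starts at 1.08, to the right of every member's.

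**Figure D2:**
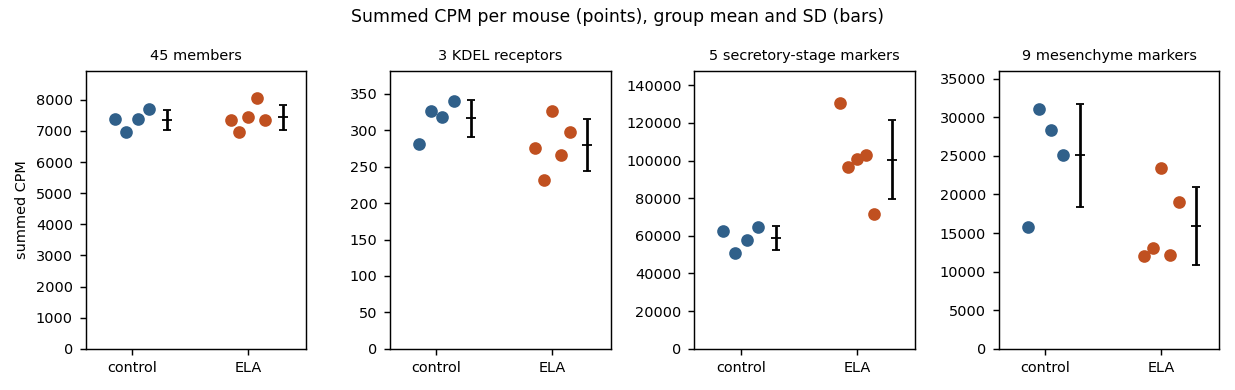
Summed CPM per mouse (points, y axis) with group mean and SD (bars), for the 45 members, the 3 KDEL receptors, 5 secretory-stage ameloblast markers and 9 mesenchyme markers, 4 control and 5 ELA mice. The sums of the 45 members overlap between groups while those of the secretory-stage markers do not.

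Levels were compared between genes per length, as FPKM (here the CPM divided by the deposited gene length in kilobases). The most abundant members were lumenal folding proteins. Calr, a calcium-binding lectin chaperone, had a mean of 274 FPKM over the 9 mice (240 to 303). P4hb, the founding protein disulfide isomerase, had 209.6 FPKM (197 to 223), Pdia3, which works with the lectin chaperones, had 182 FPKM (157 to 212), and Hspa5, the ER Hsp70 BiP, had 149.7 FPKM (119.7 to 176). In all, 16 members had a mean above 50 FPKM and 9 a mean under 10 FPKM. The lowest were Derl3 with 2.53 FPKM, Chac1 with 1.28 FPKM and Trib3 with 0.938 FPKM. The smallest counts behind these were 11 reads in a library for Chac1 and 28 for Trib3, so counting error is largest there. Of the 44 pairs of neighbours in this order, 2 had ranges over the 9 mice that did not overlap, Calr above P4hb and Syvn1 above Derl2. The second order rests on the deposited lengths, 4772 bases for Syvn1 and 8049 for Derl2. In CPM, Derl2 had means of 53.8 in ELA and 54.1 in control mice, above Syvn1 at 40.3 and 42.0. Exons of Derl2 overlap Mis12 and those of Syvn1 overlap Mrpl49, each on the other strand.

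**Figure D3:**
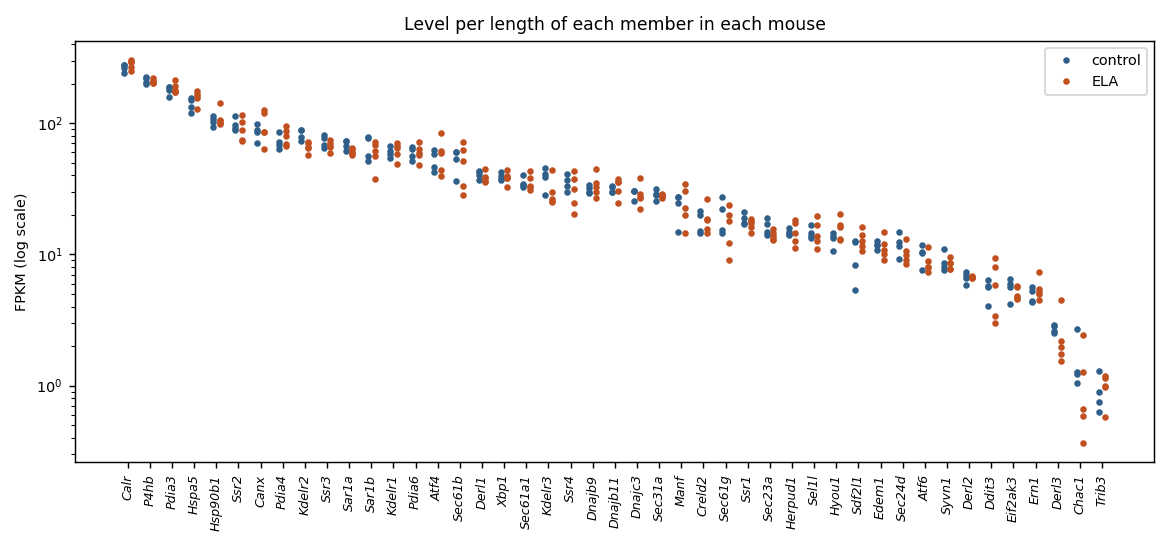
FPKM (y axis, log scale) of each member in each mouse, members ordered by their mean over 9 mice, control and ELA mice in separate colours. Calr lies highest, at 240 to 303 FPKM, and Trib3 lowest, and the colours overlap for every member except Kdelr2.

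Lumenal chaperones and co-chaperones, 11 members, had a median log2 fold change of 0.09. Of these, 10 were positive and 1 was negative (Dnajc3, −0.02), and none passed the adjusted p. Hspa5 is the central ER chaperone and holds the sensors inactive when bound to them. In ELA its values were 656, 539, 679, 745 and 709.7 CPM in t-203-1-3, t-203-1-4, t-203-1-5, t-205-1-1 and t-205-1-3, the order used for ELA mice from here on. In control mice they were 639, 565, 506 and 659 CPM in c-202-1-1, c-202-1-2, c-204-1-1 and c-204-1-2, likewise kept. In ELA, 3 mice were above every control mouse and t-203-1-4 lay among the lower controls, so the groups overlap. The log2 fold change was 0.17 ± 0.14 (SE, edgeR adjusted p = 0.968), with an interval of −0.14 to 0.48.

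Hyou1, a large Hsp70-family chaperone that exchanges nucleotide on Hspa5, had 95.5, 117, 92.3, 148 and 121 CPM in ELA. In control mice it had 96.9, 106, 99.9 and 76.6 CPM. The highest values were in t-205-1-1, t-205-1-3 and t-203-1-4, while t-203-1-3 and t-203-1-5 were below 3 of the 4 control mice. Its log2 fold change was 0.28 ± 0.16 (SE, edgeR adjusted p = 0.879).

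Sdf2l1, a partner of the ER Hsp40 proteins and a strong target of the unfolded protein response, had 12.8, 11.9, 18.0, 15.6 and 14.0 CPM in ELA. In control mice it had 13.7, 14.1, 5.91 and 9.15 CPM. Both c-204 mice were below every ELA mouse, and both c-202 mice lay inside the ELA range. The log2 fold change of 0.43 ± 0.25 (SE, edgeR adjusted p = 0.869) was the highest of all members, with an interval of −0.11 to 0.97.

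The other chaperones had log2 fold changes of −0.02 to 0.16. These are Canx (0.16), the membrane lectin chaperone, Dnajb9 (0.11), an Hsp40 that dampens IRE1, Calr (0.09), the secreted folding factors Creld2 (0.09) and Manf (0.05), Hsp90b1 (0.08), the ER Hsp90, and the Hsp40 proteins Dnajb11 (0.06) and Dnajc3 (−0.02). Hsp90b1 and Canx were highest in t-205-1-1, at 574 and 588 CPM. Manf ranged over 51.7 to 121 CPM in ELA and 52.6 to 96.9 CPM in control mice, and part of its exons overlap Dcaf1 and Rbm15b.

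The 4 protein disulfide isomerases, which form and rearrange disulfide bonds, had a median log2 fold change of 0.03. Pdia4 had 166, 207, 161, 227 and 193 CPM in ELA and 172, 152, 205.1 and 164 CPM in control mice. Pdia3 had 599, 543, 559, 667 and 543 CPM in ELA and 557, 493, 594 and 593 CPM in control mice. For both genes t-205-1-1 was the highest of the 9 mice and c-202-1-2 the lowest, and the groups overlap. On the log2 scale ELA minus control was 0.14 ± 0.14 for Pdia4 and 0.06 ± 0.13 for Pdia3 (SE, edgeR adjusted p = 0.993 and 0.999). Pdia6 and P4hb were at 0.01 and −0.03.

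Of the 8 stress sensors and transcription regulators, 4 were positive and 4 negative, with a median of 0.05. Ern1, the IRE1 kinase and RNase, had 41.1, 44.8, 37.0, 59.998 and 42.6 CPM in ELA and 36.1, 46.2, 43.2 and 35.4 CPM in control mice. Atf6 had 73.8, 82.8, 68.3, 106 and 73.7 CPM in ELA and 108, 70.7, 94.7 and 96.7 CPM in control mice. In ELA, t-205-1-1 was the highest mouse for both sensors. The fitted log2 fold change came to 0.16 ± 0.16 for Ern1 and −0.20 ± 0.16 for Atf6 (SE, edgeR adjusted p = 0.984 and 0.963), and Eif2ak3, the PERK kinase, was at −0.13.

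Xbp1, whose spliced form is the transcription factor made by IRE1, had 124, 106, 142, 124 and 128 CPM in ELA. It had 120.1, 129, 123 and 137 CPM in control mice, inside the ELA range. With a log2 fold change of −0.03 ± 0.12 and an interval of −0.29 to 0.23, it was among the more narrowly bounded members (edgeR adjusted p = 0.999).

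Of the 45 members, Chac1 and Ddit3 had the largest SDs of log2 values within the ELA group, 0.79 and 0.69, while that of Atf4, upstream of both, was 0.43. Atf4 had 145, 103, 199.9, 93.9 and 139.6 CPM in ELA and 109, 147, 100.4 and 136 CPM in control mice. Ddit3, the pro-apoptotic factor CHOP, had 10.03, 5.16, 16.2, 5.85 and 13.7 CPM in ELA and 6.90, 9.92, 11.0 and 9.63 CPM in control mice. Chac1, a glutathione-degrading enzyme induced by ATF4 and CHOP, had 1.09, 0.962, 3.95, 0.602 and 2.08 CPM in ELA and 1.70, 4.41, 2.00 and 2.07 CPM in control mice. In all 3 genes t-203-1-5 was the highest ELA mouse and t-203-1-4 and t-205-1-1 were the lowest, on either side of the control values for Ddit3. The log2 fold changes were 0.15 ± 0.22 (Atf4), 0.13 ± 0.32 (Ddit3) and −0.53 ± 0.52 (Chac1), each SE, with edgeR adjusted p-values of 0.999, 0.999 and 0.985. Trib3, an inhibitor of this branch, was at 0.13 and had at most 2.73 CPM in any mouse. Exons of Ddit3 overlap those of Mars on the other strand by 68 bases, and Mars was at 46.6 CPM against 9.87 for Ddit3. The counting program's strand setting is not given, so shared reads cannot be told apart.

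**Figure D4:**
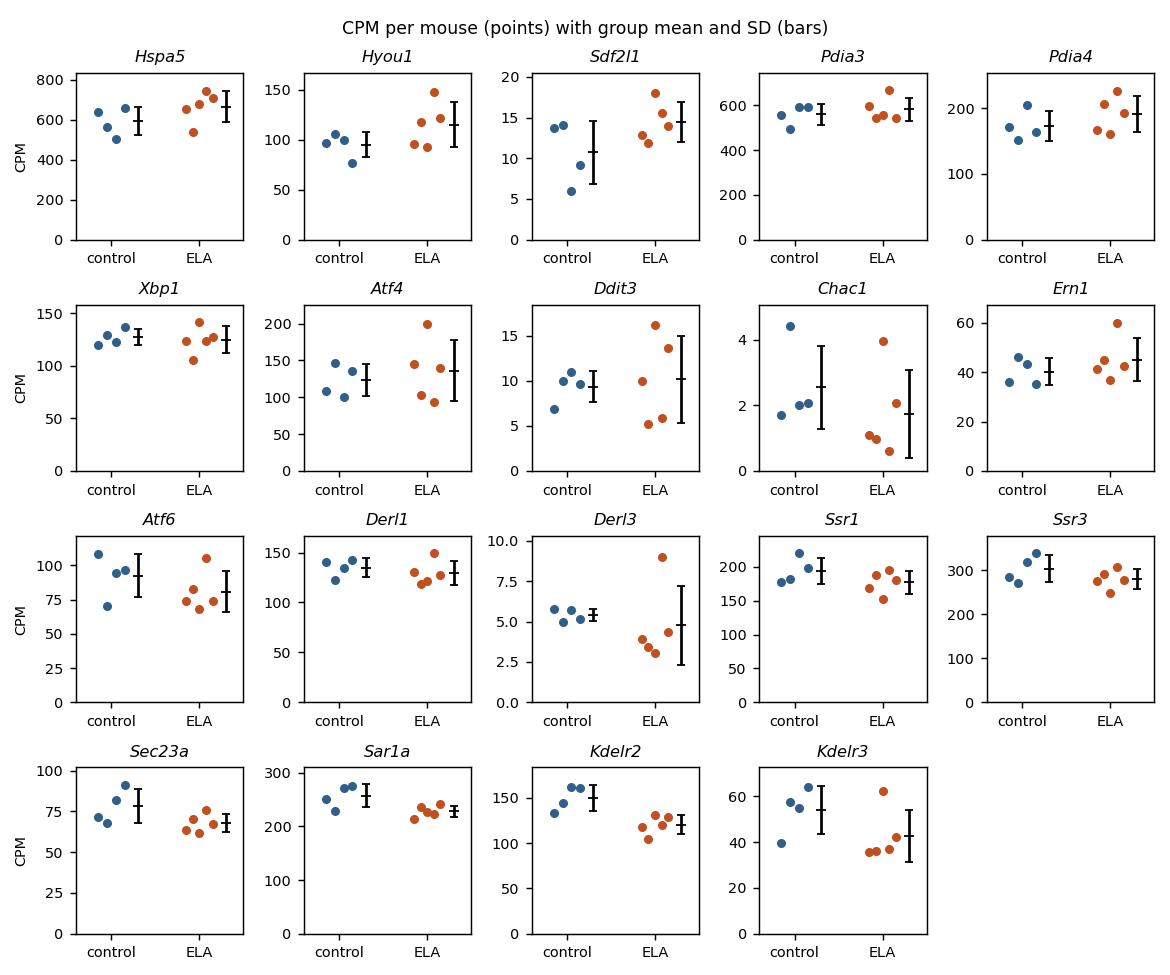
CPM (y axis, from 0) in each of 4 control and 5 ELA mice (points) with group mean and SD (bars) for 19 members. The groups overlap in every panel except Kdelr2, where the ELA mice sit between 105 and 132 CPM and the control mice between 133 and 162 CPM.

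ER-associated degradation, which returns misfolded protein to the cytosol, had 7 members and a median log2 fold change of −0.05, with 2 positive and 5 negative. Derl3, a derlin of the retrotranslocation complex that is strongly induced in secretory cells, had 3.90, 3.45, 3.06, 9.02 and 4.38 CPM in ELA. In control mice it had 5.75, 4.99, 5.70 and 5.15 CPM. In ELA, 4 mice were below every control mouse and t-205-1-1 was above all of them. Its log2 fold change was −0.18 ± 0.31 (SE, edgeR adjusted p = 0.999). Without t-205-1-1 its unadjusted p was 0.0250 and its edgeR adjusted p 0.584, the lowest over the 15 alternatives, whose highest was 0.99995.

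Derl1, the more widely expressed derlin, had 130.3, 118, 121, 149.7 and 128 CPM in ELA and 140.3, 122, 134 and 143 CPM in control mice. Its fitted difference on the log2 scale was −0.06 ± 0.12 (SE, edgeR adjusted p = 0.999). The ligase Syvn1 (HRD1) was at −0.06, its partner Sel1l at 0.01, the glycoprotein-sorting lectin Edem1 at −0.05, Derl2 at −0.01 and Herpud1, a scaffold of the complex, at 0.00. Derl2 had the least spread of any member in ELA, 53.1 to 55.1 CPM.

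The translocon and the TRAP complex beside it, 7 members, had a median of −0.12, with 1 positive (Sec61a1, 0.02, the channel subunit) and 6 negative. Ssr1, the TRAP alpha subunit, had 169, 188, 153, 194 and 180.4 CPM in ELA and 178, 181, 219.5 and 198 CPM in control mice. Ssr3, the gamma subunit, had 275, 293, 249, 308 and 277 CPM in ELA and 285, 272, 319 and 339 CPM in control mice. For both, the 2 c-204 mice were the highest of the 9 mice and t-203-1-5 the lowest. The log2 fold change was −0.14 ± 0.12 for Ssr1 and −0.12 ± 0.12 for Ssr3 (SE, edgeR adjusted p = 0.980 and 0.996). The small channel subunits spread widely among ELA mice, Sec61b over 36.1 to 92.1 CPM and Sec61g over 22.3 to 58.7 CPM.

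All 5 genes of the COPII coat had a negative log2 fold change, with a median of −0.17, and none passed the adjusted p. Sec23a, which with SEC24 forms the inner coat, had 63.5, 70.6, 61.9, 75.6 and 67.3 CPM in ELA and 71.8, 68.0, 82.2 and 91.2 CPM in control mice. Sar1a, the GTPase that starts the coat, had 214, 236, 227, 223 and 241 CPM in ELA and 252, 229.7, 273 and 275 CPM in control mice. For Sar1a 3 control mice were above every ELA mouse and c-202-1-2 lay among them. On the log2 scale ELA minus control was −0.21 ± 0.12 for Sec23a and −0.17 ± 0.11 for Sar1a (SE, edgeR adjusted p = 0.876 and 0.916). The cargo adaptor Sec24d was at −0.23, Sar1b at −0.16 and the outer coat gene Sec31a at −0.03. Summed over the 5 genes, ELA mice had 632 to 686 CPM and control mice 681 to 765 CPM, ranges that overlap by c-202-1-1 against t-203-1-5. Across another 15 COPII and cargo receptor genes, which were not members, 10 were positive and 5 negative with a median of 0.03.

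The KDEL receptors held the member with the smallest p. Kdelr2 had 118, 105, 132, 119.7 and 129 CPM in ELA, a mean of 121 ± 10.7 (SD, n = 5). In control mice it had 133, 144, 162 and 161 CPM, a mean of 149.97 ± 14.0 (SD, n = 4). Every ELA mouse was below every control mouse, the closest pair being t-203-1-5 at 132 and c-202-1-1 at 133 CPM. The fitted log2 fold change came to −0.31 ± 0.12 (SE, edgeR unadjusted p = 0.0221, adjusted p = 0.646), with an interval of −0.58 to −0.05. Leaving out t-203-1-4, the library with neuron markers, gave −0.27 (edgeR unadjusted p = 0.0557, adjusted p = 0.873). Leaving out c-204-1-1 or c-204-1-2 gave unadjusted p-values of 0.0631 and 0.0620. Over the 15 alternatives its adjusted p was 0.411 to 0.9998.

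Kdelr3 had 35.5, 35.9, 62.3, 37.1 and 42.3 CPM in ELA and 39.7, 57.6, 54.9 and 64.1 CPM in control mice. In ELA, 4 mice lay at or near the lowest control mouse, and t-203-1-5 was among the highest of the 9. Its log2 fold change was −0.34 ± 0.19 (SE, edgeR adjusted p = 0.864), and without t-203-1-5 it was −0.52 (edgeR unadjusted p = 0.00619, adjusted p = 0.380), with adjusted p-values of 0.380 to 0.9998 over the 15 alternatives. The mesenchyme markers of the same libraries summed to 12004, 13116, 23370, 12110 and 19037 CPM in ELA and 15738, 31006, 28408 and 25052 CPM in control mice. The lowest 3 mice in Kdelr3 were the lowest 3 in that sum, and their part in the result was not tested. Kdelr1 had a log2 fold change of 0.05, with 91.6 to 133 CPM in ELA and 102 to 125 CPM in control mice. Whether the receptors differ from each other in response was not tested.

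Members with a stress element in the promoter window lay on both sides of 0. The 9 with the ER stress element had log2 fold changes of −0.18 (Derl3) to 0.17 (Hspa5), with a median of 0.08, and 6 were positive. The 2 with ERSE-II were at 0.06 and 0.00. The 3 with the XBP1 element were Kdelr3 at −0.34, Sec24d at −0.23 and Sec23a at −0.21, and Xbp1 itself was at −0.03. The 4 with the ATF4 element lay between −0.53 (Chac1) and 0.13 (Trib3), with a median of 0.02, and 3 were positive. None of these genes passed the adjusted p.

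Libraries of the same group also differed from each other in a way that followed gene length. Each member's log2 CPM was set against its mean over the 9 mice. In t-203-1-4 the 11 members shorter than 2000 bases had a median deviation of −0.37 and the 18 members of at least 4000 bases −0.02. In t-203-1-5 the same medians were 0.42 and −0.19. Spearman's rho between length and deviation over the 45 members was 0.73 in t-203-1-4, 0.46 in t-205-1-1, −0.64 in t-203-1-5, −0.39 in t-205-1-3 and −0.34 in t-203-1-3. In the control libraries it was −0.29 to 0.25. Members of a library share its RNA and its depth, so these values are a description.

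The slope of the deviation per doubling of length had the same sign over all 15909 genes in each library, 0.19 in t-203-1-4 and −0.12 in t-203-1-5, beside 0.23 and −0.25 over the members. The ELA libraries thus held both extremes. The short genes Chac1, Ddit3, Sec61b and Sar1b were below their mean in t-203-1-4 and t-205-1-1 and above it in t-203-1-5. Chac1 was also below its mean in t-203-1-3 (−0.66), where the slope over all genes was −0.08. The short gene Derl3 was above its mean in t-205-1-1 (0.89) and below it in t-203-1-5 (−0.64), and Sdf2l1 was above in both (0.34 and 0.55). The part of the length slope in the spread of these genes was not tested. With each library's slope over all genes as a covariate, 0 members passed the adjusted p, and Kdelr2 was at −0.30 (edgeR unadjusted p = 0.0142, adjusted p = 0.411).

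**Figure D5:**
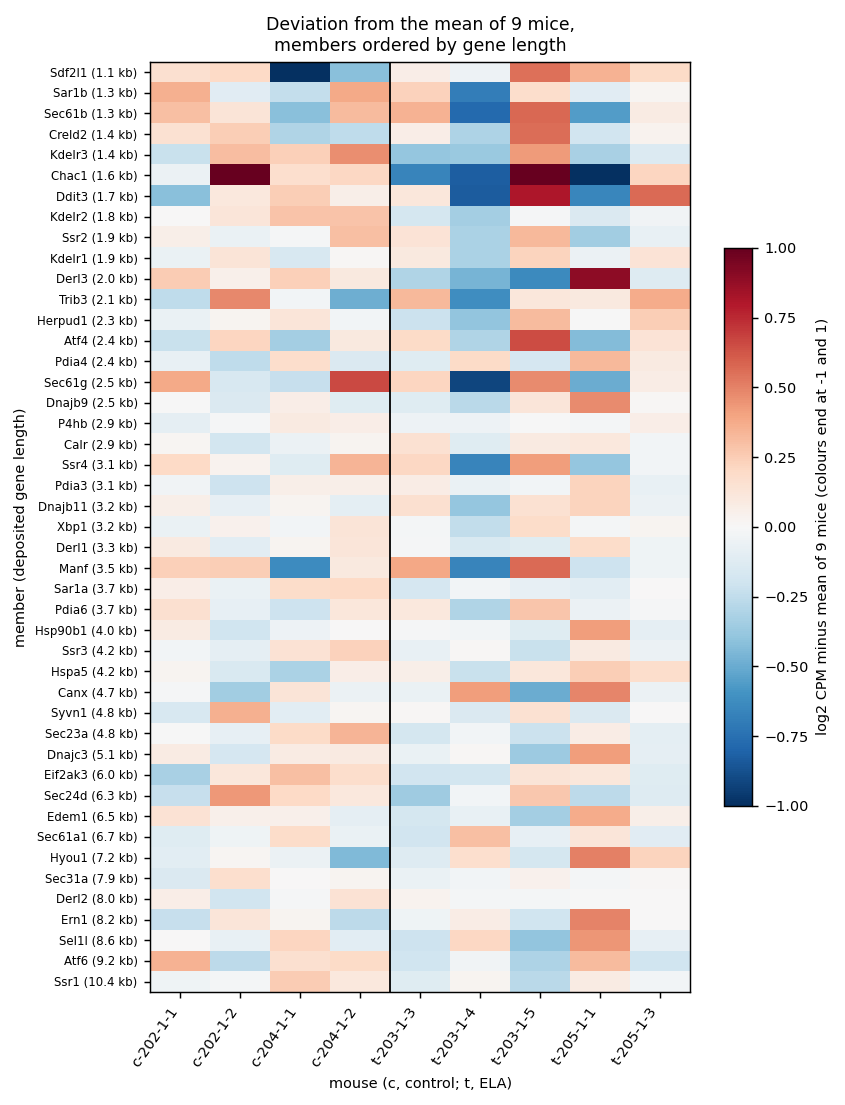
Deviation of each member's log2 CPM from its mean over 9 mice (colour, ending at −1 and 1), members from short (top) to long (bottom), control mice left and ELA mice right of the line. The short members are blue in t-203-1-4 and most are red in t-203-1-5, with medians of −0.37 and 0.42 over the 11 shortest. In t-203-1-5 the short members Derl3 (−0.64) and Kdelr2 (−0.01) are not red.

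A wider list of 102 further genes of the same pathways, of which 101 were tested, was read in the same fit. None passed the adjusted p. At an unadjusted p below 0.05, 1 (Slc7a5) was higher, where 3.56% of all genes were, and 1 (Creb3l3) was lower, where 2.89% were. In 1 gene all ELA mice were above all control mice (1.39% of all genes) and in 1 all were below (1.29%). In sign, 39 were positive and 62 negative, with a median of −0.03. Groups with mostly negative values were other folding enzymes (12 of 15, median −0.07), signal recognition and signal peptidase genes (13 of 15, median −0.06) and other ER stress transducers (9 of 10, median −0.13). Oligosaccharyltransferase genes had 6 of 10 negative, COPI coat genes 5 of 8 and other degradation genes 6 of 13, and ATF4 target genes had 9 of 15 positive with a median of 0.04.

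Slc7a5, an amino acid transporter and ATF4 target, had 51.5, 49.9, 31.0, 41.4 and 37.7 CPM in ELA and 35.2, 40.0, 25.4 and 24.5 CPM in control mice. Its log2 fold change was 0.43 ± 0.19 (SE, edgeR unadjusted p = 0.0450, adjusted p = 0.756). The ER-membrane factor Creb3l3 was near the detection limit, at 0.0547 to 0.649 CPM in ELA and 0.264 to 1.97 CPM in control mice, with a log2 fold change of −1.56 ± 0.67 (SE, edgeR unadjusted p = 0.0401, adjusted p = 0.726).

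Nupr1, a stress-induced nuclear protein, averaged 27.2 ± 13.9 CPM among the ELA mice and 43.3 ± 10.7 CPM among the control mice (SD, n = 5 and 4), with a log2 fold change of −0.67 (edgeR adjusted p = 0.817). Fkbp11, an ER prolyl isomerase abundant in plasma cells, was at 12.7 ± 6.03 and 18.6 ± 3.31 CPM (SD, n = 5 and 4), with a log2 fold change of −0.54 (edgeR adjusted p = 0.843). The groups overlap for all 4 of these genes.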

How the data were processed

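The authors deposited whole-number counts per Ensembl gene, made for them by a sequencing company. CASAVA, HISAT and HISAT2 are listed in the submitters' processing notes with no version. Which program counted the reads, whether it used strand and on which build is not given in the sources used here. All 45 members have the same coordinates in GENCODE M21 (GRCm38). Columns were assigned to mice by title, and 0 columns were left unassigned.

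Counts were fitted with edgeR 4.0.16 in R 4.3.3 (filterByExpr with a count minimum of 10, TMM, robust glmQLFit, glmQLFTest), with Benjamini-Hochberg adjustment over 15909 genes and a threshold of 0.05. Intervals of 95% come from the quasi-likelihood standard error. The tests were also run on simulated counts of independent mice with no trend in gene length. That run does not cover mice that are not independent or a length trend. Alternatives were DESeq2 1.42.0, named in the paper's methods, other normalizations, no filter, counts summed by title number and each mouse left out. A fit with each library's length slope was chosen after seeing the data. Members and lists were chosen with earlier results of these data known. Values per mouse are given for the 2 members with the smallest p in each of 7 role groups (3 in groups of over 7) and for Hspa5, Xbp1, Atf4 and Ddit3, and the 4 smallest-p genes of the wider list are named.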

Additional observations from a re-analysis of the deposited data

Results flagged for a closer look

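In 5 of 90 groups of values (45 members in ELA and in control mice, 5.56%), the highest or lowest mouse stood apart by Dixon's rule, which flags about 1 in 20 groups by chance. Hsp90b1 was at 574 CPM in t-205-1-1, with the other ELA mice at 394 to 427 CPM. Derl3 was at 9.02 CPM in the same mouse, with the other ELA mice at 3.06 to 4.38 CPM. Kdelr3 was at 62.3 CPM in t-203-1-5, with the other ELA mice at 35.5 to 42.3 CPM. Among control mice, c-202-1-2 was lowest in Dnajc3, at 131 CPM with the others at 155 to 156 CPM, and highest in Chac1, at 4.41 CPM with the others at 1.70 to 2.07 CPM.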

How the results depend on the processing

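The members' result was refitted under 15 alternatives, and 0 members passed the adjusted p in any of them, the smallest adjusted p being 0.380 (Kdelr3). No paired analysis was possible because the title numbers differ between the groups. Over all genes, 6 were higher and 4 lower in ELA, against 80 and 61 with DESeq2, 2 and 2 with plain library totals, 22 and 16 without the filter on low counts, 3 and 0 with counts summed by title number, and 10 and 11 with the length slope, a fit chosen after seeing the data. Leaving out 1 mouse gave 0 to 16 genes higher and 0 to 9 lower. Members lower at an unadjusted p below 0.05 numbered 2 with library totals (Kdelr2 and Sec23a), 0 with summed counts and 0 to 3 with 1 mouse left out, and members higher numbered 0 to 1 with 1 mouse left out (Sdf2l1 without c-202-1-2). The 3 were Kdelr2, Kdelr3 and Chac1 without t-203-1-5, and 0 remained without t-203-1-4, c-204-1-1 or c-204-1-2. Over all genes, in either direction, 1301 of 15712 were below that p without t-203-1-5, beside 1025 of 15909 in the main fit. They numbered 1021 of 15909 with library totals, 1075 of 17629 with summed counts and 689 to 1301 with 1 mouse left out. The log2 fold change of Kdelr2 was −0.38 to −0.27 throughout.

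Of the 45 members, 24 had the same sign in every alternative and 21 did not, all with changes that passed no test. Leaving out 1 mouse, the sign changed for Atf4 (−0.031 to 0.26), Creld2 (−0.070 to 0.19), Ddit3 (−0.11 to 0.30), Derl2 (−0.066 to 0.041), Dnajb9 (−0.0056 to 0.19), Dnajc3 (−0.14 to 0.063), Edem1 (−0.16 to 0.021), Herpud1 (−0.085 to 0.087), Hsp90b1 (−0.020 to 0.13), Kdelr1 (−0.0039 to 0.12), Manf (−0.12 to 0.18), Pdia6 (−0.062 to 0.079), Sec31a (−0.076 to 0.029), Sec61a1 (−0.056 to 0.093), Sec61b (−0.26 to 0.062), Sel1l (−0.11 to 0.10), Syvn1 (−0.12 to 0.062), Trib3 (−0.0067 to 0.36) and Xbp1 (−0.078 to 0.024). With library totals, which moved the median of all genes by −0.062, it changed for Dnajb11 (−0.011), Herpud1 (−0.061), Kdelr1 (−0.019), Manf (−0.023), Pdia3 (−0.0062), Pdia6 (−0.050), Sec61a1 (−0.036) and Sel1l (−0.054). It also changed for Pdia6 with summed counts (−2.0e-05), and for Sec61a1 (−0.028) and Sel1l (−0.076) with the length slope. The medians of the disulfide isomerases and of the stress sensors and regulators, both near 0, were −0.03 and −0.02 with library totals and −0.0069 to 0.080 and −0.09 to 0.10 with 1 mouse left out, and those of the other 5 role groups kept their sign in all 15. Which cause lies behind these changes was not tested.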
